A study of Mus musculus with 2 samples.

Results

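Hepatic γδ T cells with transcripts of Crtam, Tnfrsf9 or Ccl1 were examined in 1 single-cell library of the mouse liver. They were selected on these transcripts themselves: a cell was a member when its unique molecular identifiers (UMIs, 1 for each captured transcript) of the 3 genes summed to at least 2 and those of the myeloid genes Lyz2, C1qa, C1qb and C1qc summed to at most 3. Of 8075 liver cells with 800 to 4000 detected genes and at most 6% mitochondrial UMIs, 173 were members, a share of 2.14% (exact binomial 95% interval 1.84% to 2.48%). The myeloid limit removed none of the cells that met the first condition, since all 173 of them passed it. The cells came from untreated wild type C57BL/6J mice aged 8 weeks and were sorted as CD3e+ and TCRγ/δ+, and the thymic library of the same study was also depleted of CD4 and CD8 cells with magnetic beads. By the study's own purity check, a small part of the sorted cells of each tissue were not γδ T cells. Each tissue has 1 library of droplet-based 3′ chemistry, and no label ties a cell to a mouse. Comparisons therefore carry no test, and every interval in the text is a 95% interval of counting error only.

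γδ T cells are lymphocytes that recognise antigen through a receptor of a γ and a δ chain, and the liver holds many that make interferon-γ or cytotoxic granules without prior priming. Tnfrsf9 encodes 4-1BB (CD137), a costimulatory receptor of the tumour necrosis factor receptor family that T and NK cells raise after antigen receptor signals and that feeds into NF-κB. Crtam encodes an immunoglobulin-type receptor that binds Cadm1 and appears on activated NK cells and CD8 T cells, and Ccl1 encodes a chemokine of activated T cells that acts on the receptor Ccr8.

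In the mouse assembly GRCm38.p6, Tnfrsf9 spans chromosome 4 from 150920155 to 150946104, Crtam chromosome 9 from 40972798 to 41004628 and Ccl1 chromosome 11 from 82176666 to 82179812. The 250 bases upstream of RefSeq start sites are printed for the rule genes that have an entry, Tnfrsf9 and Ccl1, and for 3 genes that stood out in the members, the chemokine gene Xcl1 and the neighbouring granzyme genes Gzmb and Gzmc. Of 8 genes looked up, Crtam and Ccl4 had no entry. The sequences are written 5′ to 3′ in the direction of the gene, and capitals mark matches on either strand to the letters TGANTCA (AP-1) or TGGAAA (NFAT), motifs of factors that act after antigen receptor signals.
Tnfrsf9, upstream start, chr4:150919905-150920154, plus strand: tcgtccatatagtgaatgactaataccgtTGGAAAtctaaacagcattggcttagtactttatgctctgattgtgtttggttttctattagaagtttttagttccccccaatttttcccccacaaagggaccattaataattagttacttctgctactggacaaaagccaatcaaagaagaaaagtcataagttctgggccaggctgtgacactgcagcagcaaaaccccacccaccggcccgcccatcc
Tnfrsf9, start within the gene, chr4:150927749-150927998, plus strand: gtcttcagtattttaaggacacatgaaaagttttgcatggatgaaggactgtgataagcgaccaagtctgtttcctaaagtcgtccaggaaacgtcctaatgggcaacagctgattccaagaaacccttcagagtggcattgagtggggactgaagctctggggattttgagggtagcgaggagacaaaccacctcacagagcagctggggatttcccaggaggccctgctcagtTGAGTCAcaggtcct
Ccl1, chr11:82179813-82180062, minus strand: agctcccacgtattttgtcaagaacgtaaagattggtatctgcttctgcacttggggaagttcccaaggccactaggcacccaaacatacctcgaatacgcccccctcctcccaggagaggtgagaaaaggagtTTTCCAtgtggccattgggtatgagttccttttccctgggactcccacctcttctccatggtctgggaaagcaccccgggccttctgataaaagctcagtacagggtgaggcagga
Xcl1, chr1:164935523-164935772, minus strand: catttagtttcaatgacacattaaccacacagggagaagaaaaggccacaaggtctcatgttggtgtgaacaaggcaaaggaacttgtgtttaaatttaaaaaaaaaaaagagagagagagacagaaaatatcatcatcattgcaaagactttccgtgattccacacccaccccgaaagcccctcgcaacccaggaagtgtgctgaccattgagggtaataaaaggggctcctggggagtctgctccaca
Gzmb, chr14:56262335-56262584, minus strand: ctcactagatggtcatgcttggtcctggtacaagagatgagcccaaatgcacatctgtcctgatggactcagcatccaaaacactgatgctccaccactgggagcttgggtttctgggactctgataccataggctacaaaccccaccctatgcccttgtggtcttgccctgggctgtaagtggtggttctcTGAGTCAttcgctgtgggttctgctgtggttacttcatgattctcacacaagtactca
Gzmc, chr14:56234658-56234907, minus strand: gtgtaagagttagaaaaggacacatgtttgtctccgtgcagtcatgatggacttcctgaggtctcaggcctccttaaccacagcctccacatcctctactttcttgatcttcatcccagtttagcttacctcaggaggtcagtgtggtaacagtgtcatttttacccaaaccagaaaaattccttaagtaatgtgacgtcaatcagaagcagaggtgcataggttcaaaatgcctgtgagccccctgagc
The second Tnfrsf9 window held an AP-1 match that begins 15 bases before the start, and the first held an NFAT match 221 bases before it. Ccl1 held an NFAT match, Gzmb an AP-1 match, and the windows of Xcl1 and Gzmc held neither. The Gzmc window belongs to a start within the annotated gene, which spans chromosome 14 from 56231397 to 56241647. Over 32851 RefSeq windows of 250 bases, 6.75% held the AP-1 letters and 18.6% the NFAT letters. A match describes these letters only and is not a site, and its absence says only that the letters are not in this window.

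The liver library held 25040963 UMIs over 8658 barcodes. The members were deeper than the other kept liver cells, with a median of 3179 against 2735 UMIs and 1239 against 1129 genes, while their medians of mitochondrial UMIs were 1.76% and 1.93%. All levels and shares below, unless said otherwise, therefore come from a random draw of 1500 UMIs per cell, which kept all 173 members and 7897 other cells. The automatic threshold of the doublet caller Scrublet marked 1 liver cell and so has not worked, and doublets were not removed. When the 559 highest scores were taken out, they included 6.94% of the members and 6.92% of the other cells. The libraries shared 60 barcodes, of which 2 belonged to members.

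Tnfrsf9 accounted for most of the selection. It had a UMI in 162 of the 173 members, Crtam in 57 and Ccl1 in 5. Tnfrsf9 was the only rule gene in 114 members (65.9%), Crtam and Tnfrsf9 occurred together without Ccl1 in 44, Crtam alone in 10, and Ccl1 occurred in 5 and in none of them alone. These counts describe the rule and were not tested. Over the whole cells, members held 406 UMIs of Tnfrsf9, with at most 14 in 1 cell, and 113 of Crtam, with at most 18. Of the 80 Ccl1 UMIs in members, 76 lay in 1 cell. That cell also had the most rule UMIs, 104, with 18 of Crtam and 10 of Tnfrsf9. It stood far from the next, which had 30, from 16 of Crtam and 14 of Tnfrsf9 and none of Ccl1. Just inside the threshold lay 119 members with 2 rule UMIs, just outside it 811 cells with 1, and 7091 kept cells had none. Most members thus sat on the threshold. Ccl1 had a UMI in 12 kept liver cells in all, 7 of them not members.

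**Figure D1:**
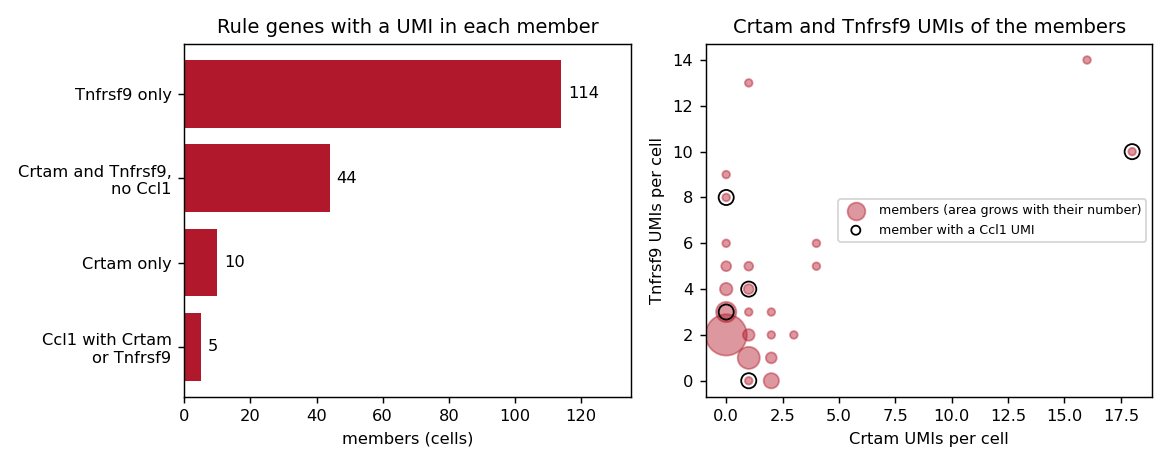
The left panel gives the number of members (horizontal axis) by the rule genes with at least 1 UMI, and the right panel plots Tnfrsf9 against Crtam UMIs per member before thinning, with the area of a point growing with the number of cells at that position and circles around the 5 members with a Ccl1 UMI. Members with Tnfrsf9 alone are the largest group, 114 of 173, and 2 cells with 16 and 18 Crtam UMIs lie apart from the rest.

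A Tnfrsf9 UMI was more frequent in liver cells with a Crtam UMI than in those without, taken over all kept liver cells. At full depth a Tnfrsf9 UMI was seen in 46 of the 294 cells with a Crtam UMI (15.7%, 11.7% to 20.3%) and in 8.78% (8.16% to 9.43%) of the cells without one. The cells with Crtam were deeper, with a median of 3013 against 2735 UMIs. At 1500 UMIs per cell the shares were 10.2% (5.70% to 16.6%) of 137 cells and 4.74% (4.28% to 5.23%) of 7933 cells, so the intervals did not overlap at equal depth either.

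The effector programs of the members were read from small gene groups at equal depth, with cuts set after the values were seen. Cells over the cut of a further gene group were set aside first and are in neither range, while they still count in the denominators. Of the rest, a cell with at least 2 UMIs of Tyrobp and Fcer1g, adaptor proteins of NK receptors, was placed in the Tyrobp range, and a remaining cell with at least 1 UMI of Cd28, Socs2, Cd40lg and Gimap3 in the Cd28 Socs2 range. These are ranges of UMIs and not cell types. The members were mostly of the Tyrobp range, with 129 cells or 74.6% (67.4% to 80.9%), against 52.6% (51.4% to 53.7%) of the other liver cells. The Cd28 Socs2 range held 32 members, 18.5% (13.0% to 25.1%), against 31.9% (30.9% to 32.9%). In both ranges the intervals of members and other cells did not overlap. The random draw moved these shares. With another thinning seed 74.0% of the members lay in the Tyrobp range and 13.3% in the Cd28 Socs2 range. Shares of the other cells under that seed were not computed, and all values within the ranges come from the first draw. Seen from the ranges, members were 3.02% (2.52% to 3.57%) of the kept cells of the Tyrobp range and 1.26% (0.860% to 1.77%) of the Cd28 Socs2 range.

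**Figure D2:**
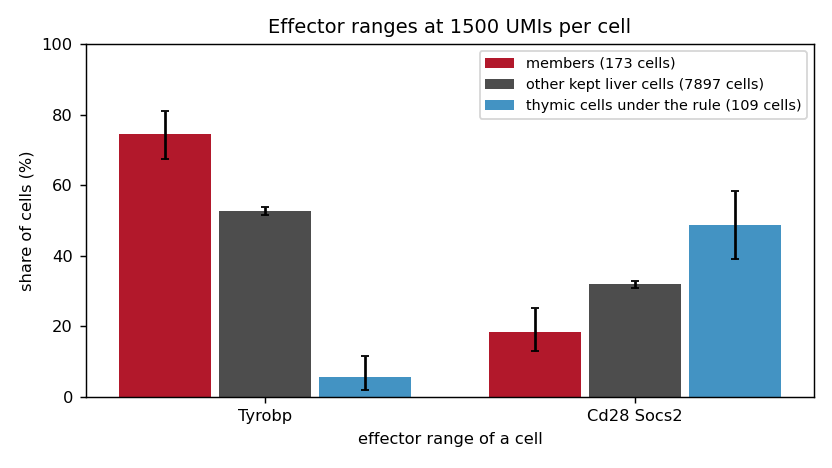
Bars give the share of cells in percent in each effector range, for the 173 members, the 7897 other kept liver cells and 109 thymic cells chosen by the same rule, each thinned to 1500 UMIs, with exact binomial 95% intervals. In the liver the members lie above the other cells in the Tyrobp range, 74.6% against 52.6%, and below them in the Cd28 Socs2 range, 18.5% against 31.9%.

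The cuts were close to some members. Of the 173, 21 had 1 or 2 UMIs of Tyrobp and Fcer1g, and 20 below the other cuts had 0 or 1 UMI of the Cd28 Socs2 group. Members of the Tyrobp range had a median of 7 UMIs of Tyrobp and Fcer1g and 1 of the Cd28 Socs2 group. Those of the Cd28 Socs2 range had medians of 2 UMIs of their own group and 0 of Tyrobp and Fcer1g. The 2 cells with the most rule UMIs lay in neither range. The one with 104 rule UMIs had 0 Tyrobp UMIs and 1 Fcer1g UMI but 244 Xcl1 UMIs before thinning, against a median of 9 in members.

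Genes were compared as counts scaled to 1000000 UMIs (CPM) summed over the members and over the other kept liver cells. A gene was called at a ratio of at least 1.5, or at most its inverse, with an exact conditional binomial interval that left out 1, among genes with a mean CPM of the groups of at least 25 and without mitochondrial, ribosomal-protein, rule and filter genes. Of 3982 genes, 169 were called higher in the members, 4.24 percent, and 138 lower, 3.47 percent. At a ratio of 2 these were 71 and 84. The calls depended on the random thinning: with another seed 155 were called higher, of which 65 were shared, and 145 lower, of which 71 were shared. Of the 72 higher calls that reached 100 CPM in members or other cells 35 were shared, and 30 of the 97 below that level. Without its own top member, 69 of the 169 calls were lost, but none of the 20 higher genes named in the next paragraphs. Those 20 and 9 lower genes had the largest changes among called genes that reached 100 CPM in members or other cells.

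Of 10 chemokine genes 6 passed the filter, 3 were called higher, Xcl1, Ccl3 and Ccl4, and 2 lower, Cxcl2 and Cxcl10. The shares over all genes were 4.24 percent higher and 3.47 percent lower. Xcl1, whose product lymphotactin attracts cross-presenting dendritic cells through Xcr1, stood at 5218 CPM (4944 to 5503) in members and 1852 (1827 to 1876) in other cells, a ratio of 2.82 (2.67 to 2.98). Per cell, Xcl1 ran from 0 to 76 UMIs with a median of 4 in members, against a median of 1 in the others. Ccl3 and Ccl4, chemokine genes of activated lymphocytes and macrophages, stood at 1218 against 561.4 CPM, a ratio of 2.17 (1.93 to 2.43), and at 6343 against 3068 CPM, a ratio of 2.07 (1.97 to 2.17). Ccl4 ran from 0 to 101 UMIs in members with a median of 3, so the members overlapped widely with the other cells, whose median was 1. Their spans in the annotation overlap on chromosome 11, and how reads in the overlap were assigned is not given in the sources used here. Ccl5, the most abundant chemokine transcript of the list, was at 18963 against 14736 CPM, a ratio of 1.29 (1.25 to 1.32) that was not called.

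Granule genes followed. Gzmb, the granzyme that cleaves after aspartate and starts target cell death, was at 5379.6 CPM (5101 to 5669) in members and 2729 (2699 to 2759) in other cells, a ratio of 1.97 (1.87 to 2.08). Its UMIs ran from 0 to 40 per member with a median of 5, against 2. Gzma was at 3827 against 2232 CPM, a ratio of 1.71 (1.61 to 1.83). Gzmc, a granzyme next to Gzmb on chromosome 14, had the largest ratio of the named genes, 14.1 (9.78 to 19.8), at 169.6 against 12.1 CPM. It came from few cells, 44 UMIs in 14 members (8.09%), against 1.36% of the other cells with a UMI. Cst7, an inhibitor of granule proteases, was at 331.4 against 174.9 CPM, a ratio of 1.90 (1.51 to 2.35). Of the 13 granule genes listed, 10 passed the filter, these 4 were called higher and none lower. Among all genes 4.24 percent were called higher. Prf1, Gzmk and Gzmm were below the filter, with 3, 1 and 2 UMIs in members.

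Surface and signalling genes completed the higher set. Cd8a, which encodes the CD8 α chain, stood at 470.1 CPM (390.4 to 561.3) in members and 183.1 (175.5 to 191.0) in others, a ratio of 2.57 (2.12 to 3.08), with a UMI in 30.6% of members and 16.7% of others. Cd8b1, needed for the conventional CD8 heterodimer, had 1 UMI in members and Cd4 had 0. Irf8, a transcription factor of lymphoid and myeloid cells, stood at 188.8 against 60.4 CPM, a ratio of 3.13 (2.29 to 4.18), in 34 members. The NF-κB-linked genes Icam1, an adhesion molecule, and Bcl2a1d, a survival gene of the Bcl2 family, had ratios of 2.03 (1.51 to 2.66) and 2.39 (1.58 to 3.46), the latter with near-identical copies in the genome that counting may not separate. Others among the 20 were Ehd1 (2.83), a regulator of endocytic recycling, Serpina3g (1.90), a protease inhibitor, the kinase gene Ptk2b (2.06), Litaf (2.05), Sult2b1 (2.51), Mmd (2.35), Ik (2.09), Agfg1 (2.02), Mrpl51 (1.93) and Car2 (1.84), the carbonic anhydrase 2 gene. Under 18 alternatives to the processing, Car2 lost its call in 9, Mrpl51 in 5, and Ik and Agfg1 in 3 each.

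**Figure D3:**
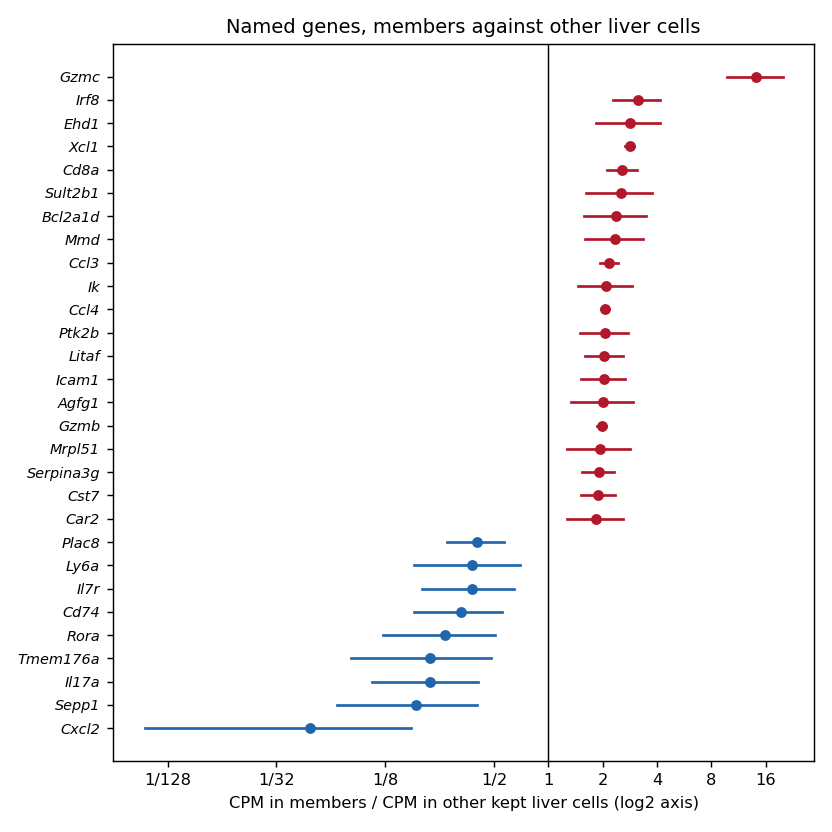
Points give the ratio of CPM in the 173 members over that in 7897 other kept liver cells on a log2 axis and lines the exact conditional binomial 95% interval, red for the 20 named higher genes and blue for the 9 named lower genes. Gzmc stands highest at 14.1, Xcl1, Ccl4 and Gzmb have the narrowest intervals, and Cxcl2 is lowest at 0.0481.

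Lower in the members were a cytokine gene, a cytokine receptor gene and genes of several other kinds. Il17a was at 38.5 CPM in members and 174.7 in others, a ratio of 0.221 (0.106 to 0.406), and 9 of its 10 UMIs came from 1 member, without which the ratio was 0.0222. Rora, which encodes a nuclear receptor, had a ratio of 0.267 (0.122 to 0.507) and Tmem176a 0.221 (0.0810 to 0.483). Il7r, which encodes the receptor chain for interleukin-7, was at 50.1 against 132.4 CPM, a ratio of 0.379 (0.201 to 0.649). Ly6a (0.379), Plac8 (0.402) and Sepp1 (0.184) were also lower, and Cxcl2, a neutrophil-attracting chemokine, had 2 UMIs in 1 member against 160.1 CPM in other cells. Cd74, the invariant chain of MHC class II, had a ratio of 0.329 (0.180 to 0.554). Of the 16 myeloid genes listed, 8 were at 0 in the members and their summed level was 111.8 CPM against 621.4. The rule limits 4 of these genes in members and not in the other cells, but that limit removed no cell that met the first condition. When the other cells met the same limit, the Cd74 ratio was 0.692 and no longer called, that of Cxcl2 0.0890 and that of Sepp1 0.192.

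The levels of Xcl1, Ccl4 and Irf8 rose with the number of rule UMIs over the kept liver cells. Xcl1 was at 1746 CPM in the cells with 0 rule UMIs, 2777 with 1, 3815 in members with 2 and 8309 in members with 3 or more. Ccl4 ran 2834, 5116, 5731 and 7691 CPM, and Irf8 57.1, 88.8, 134.5 and 308.6 CPM. Xcl1 was thus already higher in the 811 cells just below the threshold than in the cells without rule UMIs, by a ratio of 1.59 (1.53 to 1.65), and within the members those with 3 or more were above those with 2, by a ratio of 2.18 (1.96 to 2.43). The last step leaned on few of the 54 members with 3 or more. Single cells held 76, 55, 50 and 47 of their 673 Xcl1 UMIs, and 101, 62 and 47 of their 623 Ccl4 UMIs. Levels without these cells were not computed. Gzmb took another course, at 2546, 4326, 5305 and 5543 CPM, and its last step had a ratio of 1.05 (0.932 to 1.17). Cd8a was highest in members with 2 rule UMIs, at 543.4 CPM, and lower again at 308.6 CPM with 3 or more, a ratio of 0.568 (0.351 to 0.889). From 0 to 1 rule UMI, Tyrobp rose from 1085 to 1865 CPM, a ratio of 1.72 (1.64 to 1.80). Cd28 fell at that step, with a ratio of 0.59 (0.52 to 0.66). The Tyrobp level was 1927 CPM with 2 rule UMIs and 1321 with 3 or more, a ratio of 0.686 (0.547 to 0.854). The groups by rule UMIs thus also differed in genes of the effector ranges, and they were not split by range.

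**Figure D4:**
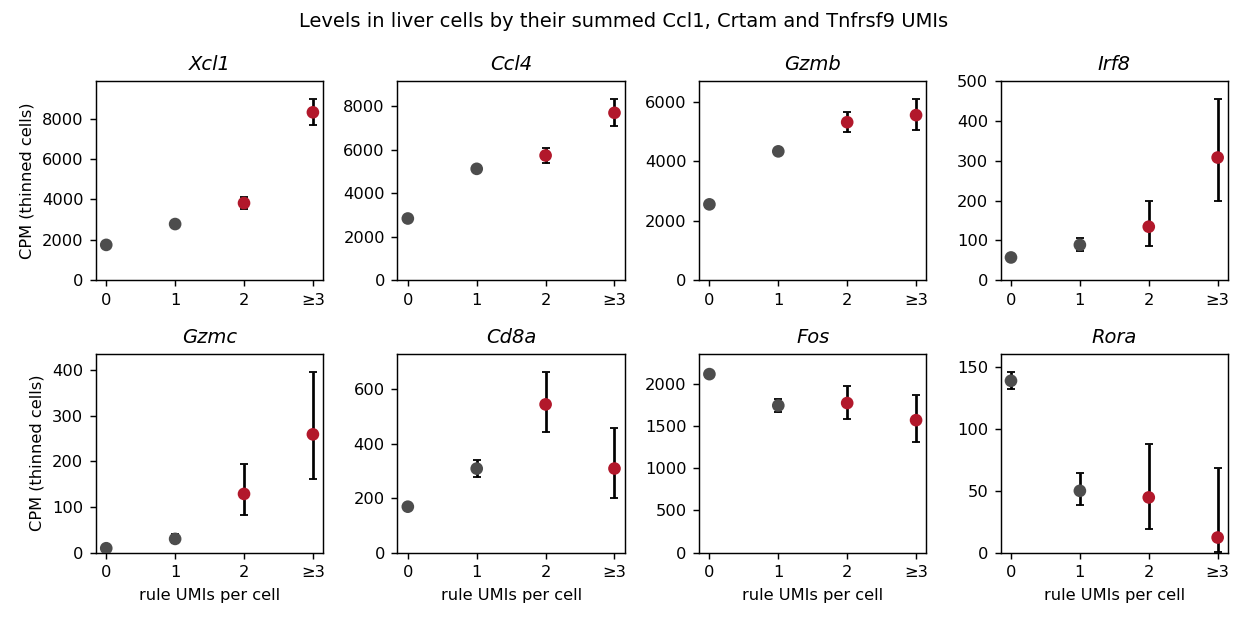
Each panel gives the CPM of 1 gene (vertical axis, from 0) in liver cells with 0, 1, 2 or at least 3 summed UMIs of the rule genes (horizontal axis), the members in red, with exact Poisson 95% intervals. Xcl1 climbs to 8309 CPM in members with at least 3, Gzmb stands at 5543 CPM there, and Fos at 1568 against 2112 CPM in cells with none.

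Members with a Crtam UMI were set beside those without. The rule ties this split to Tnfrsf9, since a member without Crtam needed at least 2 UMIs of Tnfrsf9 and Ccl1. A member with Crtam could hold 0 or 1 of Tnfrsf9. Differences between the groups can therefore not be told apart by gene. In the 57 with a Crtam UMI, Xcl1 was at 6199 CPM against 4736 in the 116 without, a ratio of 1.31 (1.17 to 1.46). Gzmb went the other way, at 4105 against 6006 CPM, a ratio of 0.684 (0.604 to 0.772). Rgs1, an inhibitor of chemokine receptor signals, was at 4702 against 7816 CPM (0.602, 0.537 to 0.673), and Cd8a at 245.6 against 580.5 CPM (0.423, 0.251 to 0.682). Nr4a3, an immediate target of antigen receptor signals, was at 117.0 against 5.75 CPM, a ratio of 20.4 with a wide interval of 2.90 to 883, from 10 UMIs against 1. The Xcl1 difference rested on few cells. The 3 members with the most Xcl1 among those with Crtam held 173 of the 530 UMIs, and without them the level was 4407 CPM, a ratio of 0.931 (0.820 to 1.06), or 1.095 (0.961 to 1.25) when the 3 highest of either group were left out. The same step for each gene left Gzmb at 0.599 (0.521 to 0.686), Rgs1 at 0.557 and Cd8a at 0.332 (0.170 to 0.599). For Nr4a3 it left 5 UMIs against 0. Without the 3 highest Crtam members only, which held 5 of its 10 UMIs, the Nr4a3 ratio was 10.7 (1.20 to 508). The Crtam group includes the 2 cells with the most rule UMIs. When at least 2 UMIs of Crtam alone defined the members, 21 cells remained, with a ratio of 3.77 (3.296 to 4.30) for Xcl1 over the other cells and of 0.809 (0.632 to 1.02) for Gzmb. This Xcl1 ratio rested on few cells too. Single cells held 50, 47 and 31 of its 227 UMIs, and the ratio without them was not computed.

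The named genes were also compared within the effector ranges. In the Tyrobp range 18 of the 20 higher genes were above the other cells with an interval that left out 1, and in the smaller Cd28 Socs2 range 8 of 20. Of the 9 lower genes this held for 4, Cxcl2, Sepp1, Cd74 and Plac8, in the Tyrobp range and for Plac8 in the other. Il17a (0.453), Rora (0.448), Il7r (0.579), Ly6a (0.696) and Tmem176a (0.847) had intervals that held 1 in the Tyrobp range. Among cells of the Tyrobp range, the 129 members were above the 4150 other cells for Xcl1, with a ratio of 2.02 (1.89 to 2.14), Gzmb with 1.56 (1.47 to 1.64), Gzmc with 9.94 (6.72 to 14.4), Cd8a with 2.01 (1.65 to 2.44) and Irf8 with 2.21 (1.54 to 3.08). Ccl4 had a ratio of 1.48 (1.40 to 1.55). Tyrobp itself had a ratio of 1.09 (0.987 to 1.20) there, and Mmd one of 0.949, below 1 unlike over all cells. In the Cd28 Socs2 range the 32 members were above the 2517 other cells for Xcl1 at 2854 against 930.5 CPM, a ratio of 3.07 (2.57 to 3.64), and for Irf8 at 5.57 (2.35 to 11.4). Mmd had a ratio of 7.45 (4.32 to 12.1) in that range, from 18 UMIs in members. A single member held 47 of the 137 Xcl1 UMIs and 47 of the 76 Ccl4 UMIs of these 32. Ratios of the range without that cell were not computed. Gzmb was at 708.3 against 910.6 CPM there, a ratio of 0.778 (0.538 to 1.09), and Gzma and Klrb1c were lower, with ratios of 0.444 (0.242 to 0.746) and 0.387 (0.105 to 0.993). Cd8a (1.70, 0.618 to 3.74), Icam1 and Cst7 had intervals that held 1, and Sult2b1 had no UMI. Ikzf2, which encodes Helios, had a ratio of 3.18 (1.92 to 4.96) in that range and 1.32 (0.865 to 1.94) in the Tyrobp range. Tox, a transcription factor of chronically stimulated T cells, had 4.37 (2.06 to 8.22) and 1.27 (0.781 to 1.97), and Nr4a1 2.22 (1.41 to 3.32) and 1.34 (0.957 to 1.83). Whether the ranges differ in these ratios was not tested.

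The name recently activated was checked against the genes that T cells switch on early. Of 20 immediate-early and AP-1 genes, 19 passed the filter, none was called higher and 1, Maff, lower, with a median log2 ratio of -0.14, against 0.04 over all 3982 genes. Fos was at 1707 against 2074 CPM (0.823, 0.748 to 0.904), and Junb at 7064 against 7302 CPM. Of 18 cytokine genes, 6 passed the filter, none was called higher and Tnf and Il17a lower. Ifng was at 732.2 against 748.8 CPM, a ratio of 0.978 (0.842 to 1.13), and Csf2 and Il3 were at 0 in members. Its ratio was 1 (0.846 to 1.17) within the Tyrobp range for Ifng, but 0.599 (0.387 to 0.886) within the Cd28 Socs2 range. Ifng was also lower in members with Crtam than in those without, by a ratio of 0.632 (0.442 to 0.888). Of 20 antigen receptor signal genes, 14 passed the filter and 2 were called higher, Irf8 and Nab2 (2.01, 1.18 to 3.22), a corepressor of Egr factors, with a median of 0.39. Nr4a1 had a ratio of 1.23 (0.955 to 1.56) and Cd69, the early activation antigen, one of 0.947 (0.780 to 1.14), and neither was called. Egr2, below the filter, had 5 UMIs in 3 members, a ratio of 9.92 (2.95 to 26.7). Over all genes 4.24 percent were called higher, so a count of none among 19 is near that share and is read as no result about the members. The cells are called here by the genes that chose them.

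Genes downstream of 4-1BB and other receptors that signal through NF-κB were mixed. Of 17 listed, 15 passed the filter and 4 were called higher: Nfkb2 (2.28, 1.34 to 3.66) and Relb (1.82, 1.12 to 2.81) of the non-canonical branch, Rel (1.83, 1.11 to 2.85) and Icam1. None was lower, and the median log2 ratio was 0.25. For comparison, 4.24 percent of all genes were called higher. Nfkbia, the feedback inhibitor of the canonical branch, was at 963.4 against 1156 CPM (0.833, 0.732 to 0.944). These genes had few UMIs, 18 to 21 in members for the 3 NF-κB subunits, and without its own top member the interval of Rel reached down to 0.902 and that of Relb to 0.989, so both calls were lost. Of the inhibitory receptor list, 4 of 12 genes passed the filter and 3 were called higher, Lag3 (1.61, 1.02 to 2.44), Cd274 (2.04, 1.04 to 3.62) and Tox, which is a transcription factor and no receptor (1.67, 1.13 to 2.38), and this count was 1 when cells were thinned to 2000 UMIs. Without its own top member, Lag3 had a lower bound of 0.911, Cd274 of 0.809 and Tox of 1.00, so that the first 2 calls were lost. Pdcd1 had 3 UMIs in members, Ctla4 1 and Havcr2 0. Tnfsf9, the ligand of 4-1BB, had 1 UMI in members, Ccr8, the receptor of Ccl1, had 0, and Tnfrsf18, a related costimulatory receptor, was at 215.8 against 166.5 CPM (1.30, 0.976 to 1.69).

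Cytokine receptors and their feedback inhibitors were lower where they were called. Of 20 listed, 14 passed the filter and 5 were called lower, against 3.47 percent of all genes: Il7r, Il18r1 (0.304, 0.0827 to 0.783), Ifngr1 (0.616, 0.484 to 0.772), Socs2 and Socs3. Within the Tyrobp range, Il7r (0.579, 0.186 to 1.37) and Socs2 (0.892, 0.471 to 1.54) had intervals that held 1. Ifngr1 had a ratio of 0.757 (0.573 to 0.982) there. Socs2 is also a gene that defines the Cd28 Socs2 range, which held a smaller share of the members than of the other cells. Of the nucleolar and Myc-linked growth genes, 18 of 20 passed the filter, 4 were called higher (Nop58, Nolc1, Srm and Nme1) and none lower, with a median log2 ratio of 0.44. Over all genes 4.24 percent were called higher. Without its own top member Srm (lower bound 0.996) and Nme1 (ratio 1.48) lost the call, as did Gbp4 and Ikzf2, named with their lists here. Without thinning, when the deeper members enter with all their UMIs, 14 were called higher. Glycolysis genes gave 1 lower call, Hk2, among 13, and the 7 cell cycle genes past the filter gave none, with Mki67 at 0 UMIs in members. Heat shock genes gave 1 lower call, Hspa1a, at 1160 against 2029 CPM, and interferon-induced genes 1 higher, Gbp4, and 1 lower, Ifi27l2a. A single call among so few genes is read as no result about the list. In the tissue residence list Rgs1 was higher, at 6790.0 against 4262.5 CPM (1.59, 1.52 to 1.67), and Ly6c2 and S1pr4 lower. Rgs1 reached a ratio of 1.5 in neither range, with 1.32 (1.25 to 1.38) in the Tyrobp range and 0.956 (0.768 to 1.18) in the Cd28 Socs2 range. Among costimulatory receptors Cd244 was higher and Icos and Cd2 lower, among TNF ligands Tnfsf14 lower, among chemokine receptors Ccr2 lower, and among transcription factors Ikzf2 higher and Satb1 and Rora lower.

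**Figure D5:**
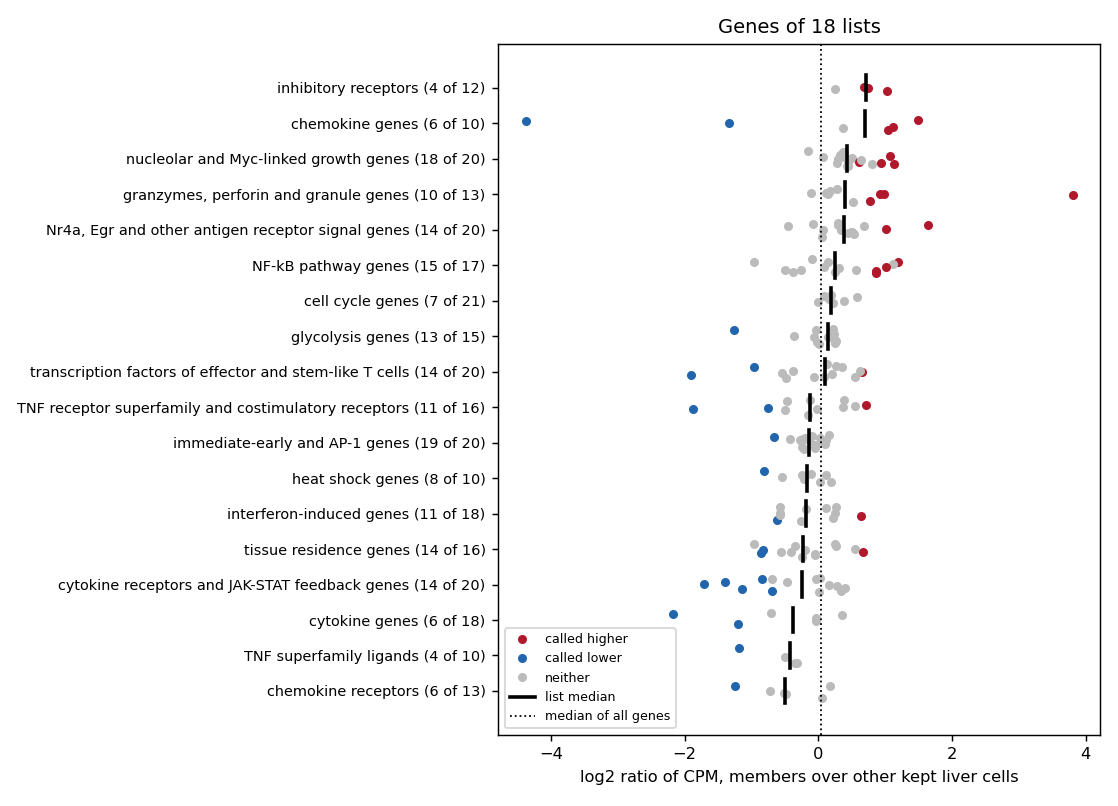
Each point is 1 gene past the filter in 1 of 18 lists, placed by the log2 ratio of its CPM in members over other kept liver cells, red when called higher, blue when called lower and grey otherwise, with the list median as a bar and the median of all genes as a dotted line. Beside each name stands how many of its genes passed the filter, and the immediate-early and AP-1 genes lie around a median of -0.14 with no red point.

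The members carried T cell transcripts. Cd3e was at 1006 CPM in members and 882.0 in others, Cd3g at 2150.3 and 1822, and of 9 T cell identity genes none was called higher and Cd247 (0.534), Thy1 (0.576) and Cd2 (0.596) lower. The NK-like list, which overlaps the granule list, had 10 of 10 genes past the filter, of which Fcer1g (1.52, 1.40 to 1.66), Klrb1c (1.57, 1.32 to 1.86), Gzmb and Gzma were called higher. The shares over all genes were 4.24 percent called higher and 3.47 percent lower. Of the type-1 effector list 8 of 10 genes passed the filter and Xcl1 alone was called, higher, and of the 2 genes past the filter for terminal Klrg1 cells and the 4 for precursor-like cells none was called. Of 7 genes of conventional NK cells and ILC1, 3 passed the filter, Klrb1c was called higher and none lower, and their summed level was 909.4 CPM in members against 648.1 in others. Ncr1 had a ratio of 1.19 (0.826 to 1.66) and Klra9 one of 1.14, neither called, while Klra8 had 1 UMI and Itga2 and Klra4 0 in members. Whether such cells take part in the differences was not tested. Eomes, below the filter, had 7 UMIs in 6 members, a ratio of 3.16 (1.24 to 6.76). Foxp3 was at 0, the 10 mast cell, basophil and ILC2 genes were all at 0, and 6 of 8 B cell genes and 6 of 8 hepatocyte genes were at 0. The genes of the T cell receptor chains are not among those in the files, so no chain was analysed here.

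The same rule gave 109 of 4351 kept thymic cells, 2.51% (2.06% to 3.01%), and their values are set beside those of the liver without a test. Tnfrsf9 had a UMI in 107 of them, Crtam in 13 and Ccl1 in none. Of these cells 5.51% (2.05% to 11.6%) lay in the Tyrobp range, against 1.75% (1.37% to 2.19%) of the other thymic cells, and 48.6% in the Cd28 Socs2 range, against 45.4%. Xcl1 was at 293.6 CPM in them against 45.5 in the other thymic cells, a ratio of 6.45 (4.65 to 8.78), and Gzmb at 152.9 against 24.1 CPM, a ratio of 6.35 (3.98 to 9.73). Both levels were far below those of the liver members. Irf8 had a ratio of 2.19 (1.08 to 4.01) and Cd8a of 6.07 (1.85 to 15.7), the latter at 30.6 against 5.04 CPM after the bead depletion of CD8 cells. Gzma was lower, at 611.6 against 2637 CPM. The largest thymic ratios among called genes that reached 100 CPM in either thymic group, Trpm1 (14.2) and Nrgn (9.35), belonged to genes that were nearly silent in liver members, at 3.85 and 11.6 CPM.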

How the data were processed

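Droplet-based 3′ single-cell libraries of sorted γδ T cells, 1 from liver and 1 from thymus, were used. The authors deposited raw UMI counts per gene and barcode for 27998 genes. The submitters' processing notes name Cell Ranger, Seurat 3.0 and mm10 without roles. In the thymic matrix 2 lines that are no entries were skipped. The limits on genes and mitochondrial UMIs are those of the study's methods, which state fewer analysed hepatic cells than these limits leave, and why was not found.

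Cells were thinned to 1500 UMIs (seed 11). CPM carries exact Poisson, shares exact binomial and ratios exact conditional binomial 95% intervals. With 1 library per tissue nothing was tested, and PCR and cell-to-cell error are not covered. Genes named are the rule genes, the 20 largest and 10 smallest ratios among called genes that reached 100 CPM in either group, and up to 6 called genes of each list with those whose absence a sentence turns on. One of the 10, and 1 effector list with its cells, are not reported here. The members and lists were chosen with earlier results of these data known. Effector cuts were at least 2 and 1 UMIs, and values singled out for single cells, the Crtam split and the rule-UMI groups were chosen after they were seen. Promoter windows are RefSeq, GRCm38.p6. The comparison script was tested on simulated data. Python 3.11.15, numpy 2.4.6, scipy 1.17.1, scanpy 1.11.5 and matplotlib 3.10.9 were used. Alternatives changed the filters, rule, depth, scaling and other cells.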

Additional observations from a re-analysis of the deposited data

Results flagged for a closer look

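Cd74, which encodes the MHC class II invariant chain, moved in opposite directions in the tissues. Its ratio of cells under the rule over the other cells was 0.329 (95% interval 0.180 to 0.554) in the liver and 2.32 (1.33 to 3.78) in the thymus, at 54.0 against 163.9 CPM and 104.0 against 44.9 CPM. The difference between tissues was not tested, with 1 library each, and in liver members 14 UMIs in 7 cells carry the value. Under at least 3 rule UMIs the liver ratio was 0.994, and against other liver cells that also met the myeloid limit it was 0.692 and not called.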

How the results depend on the processing

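No paired analysis was possible because each tissue has 1 library and no replicates, so no replicate could be left out either. The number of members was 54 at 3 or more rule UMIs, 21 with 2 UMIs of Crtam alone and 1 with Ccl1 alone, which allowed no comparison of genes. The Cd28 Socs2 range then held 9.26% of members at 3 or more rule UMIs and 33.3% with Crtam alone, where the Tyrobp range held 52.4%. Genes called higher were 71 at a ratio of 2. Genes called lower were 84 at that ratio, 90 at a mean of 50 CPM, 55 with Crtam alone and 87 within the Tyrobp range. With Crtam alone, Litaf (0.942, 0.256 to 2.42) and Gzmb (0.809, 0.632 to 1.02) lay below 1 and within the Tyrobp range Mmd did (0.949, 0.451 to 1.77), each with an interval that held 1. The Gzmc ratio of 0 with Crtam alone says nothing of direction, since 0.488 UMIs would give the level of the other cells. The comparison within the Tyrobp range and those against other cells with few filter-gene UMIs, against other cells with no rule UMI, without the member with the most rule UMIs and without the 3 highest members of the Crtam split were chosen after seeing the data. The named genes were compared under 18 alternatives, which leave out those that changed the CPM or ratio cutoff. Among the 20 higher genes, Irf8, Xcl1 and Cst7 kept their call under all 18, and among the 9 lower ones Cxcl2 did. At a ratio of at least 2, Cst7 (1.90) was not called. The causes were not tested. Called genes changed with the thinning seed: 71 of 138 lower calls were shared, 37 of 57 that reached 100 CPM in either group and 34 of 81 below it.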
